A study of Arabidopsis thaliana with 44 samples.

Results

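The chloroplast-encoded transcripts of Arabidopsis thaliana were followed through 44 RNA-seq libraries of roots, shoots and seedlings. They are all gene models whose identifiers begin with ATCG, which are 133 of the 34262 gene models in each file. Shoots were sampled from 5 groups of 4 libraries each: tpst/psyr1,2,3 (tpst-1 combined with loss of 3 PSYR receptor genes), psyr1,2,3 alone, tpst-1 given the peptide PSY5 at 1 uM, untreated tpst-1 and wild type. Roots were sampled from 3 groups of 3 libraries each: tpst/psyr1,2,3, PSY5-treated tpst-1 and untreated tpst-1. Seedlings were all tpst-1, 3 libraries at each of the labelled times 0h, 2h, 6h, 24h and 7d, with PSY5 at 1 uM at the 4 later times. The 0h labels list no treatment and serve as the baseline. All plants carry a label of 7 days of development. TPST is the enzyme that sulfates secreted peptides such as PSY5, and PSYR1, PSYR2 and PSYR3 are receptor kinases for PSY peptides. Every root and seedling library carries tpst-1, so no wild-type roots enter a comparison. The root and shoot labels give no time for the PSY5 treatment, and the labels do not say what separates 1 replicate from the next. The libraries came from 2 kits, TruSeq v2 (sequenced on the MiniSeq) and NEBNext Ultra II (sequenced on the NextSeq550), and which samples used which kit is not given. In bulk samples such as these, fewer cells of a type and less RNA per cell cannot be told apart.

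The chloroplast genome is circular and carries core subunits of both photosystems, the cytochrome b6f complex, the ATP synthase and the NDH complex, the large subunit of Rubisco, and part of the organelle's own ribosome and RNA polymerase. Most of its genes sit in clusters that are transcribed together and then processed. A plastid-encoded RNA polymerase (subunits rpoA, rpoB, rpoC1 and rpoC2), which depends on nuclear-encoded sigma factors, transcribes photosynthesis genes. A nuclear-encoded, phage-type polymerase transcribes housekeeping genes, rpoB among them. Root plastids are mostly non-green leucoplasts that keep the same genome.

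Of the 133 identifiers, 71 could be given a gene symbol, 63 symbols in all, because their length matched 1 chloroplast gene length of the RefSeq annotation (assembly TAIR10.1). Another 51 had a length that several genes share, and 11 had no match. ATCG00020 and ATCG00270 have the same length and are each psbA or psbD by that length. Genes of the inverted repeat occur as 2 identical copies (14 identifiers here), and reads can be split between such copies arbitrarily (the first copy of rpl23 held 0% to 100% of the pair's reads among shoot libraries), so these genes are also given as the sum of both copies. The 3 short coding sequences below are shown because psbM and rpl32 had the highest TPM of all members in shoots, while petN, a close neighbour of psbM on the chromosome, was listed at 0 in most libraries. They come from RefSeq, assembly TAIR10.1, chromosome Pltd, and run 5′ to 3′. Capitals mark the longest run of A in each. Subunit N of the cytochrome b6f complex is encoded by petN (ATCG00210, plus strand, 28089 to 28178, 90 nt). A small subunit of photosystem II is encoded by psbM (ATCG00220, minus strand, 28707 to 28811, 105 nt). A protein of the large ribosomal subunit is encoded by rpl32 (ATCG01020, plus strand, 113449 to 113607, 159 nt).
petN: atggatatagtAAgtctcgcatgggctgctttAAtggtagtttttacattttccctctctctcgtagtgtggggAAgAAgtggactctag
psbM: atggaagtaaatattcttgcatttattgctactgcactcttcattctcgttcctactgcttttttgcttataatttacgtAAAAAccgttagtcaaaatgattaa
rpl32: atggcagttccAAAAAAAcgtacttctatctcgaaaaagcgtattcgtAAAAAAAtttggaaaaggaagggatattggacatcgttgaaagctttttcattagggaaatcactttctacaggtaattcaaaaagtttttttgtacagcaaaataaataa
The longest A run is 2 bases in petN, 5 bases in psbM and 7 bases in rpl32. Over the 57 named single-copy genes, the shoot reads per kb had a Spearman rho of 0.11 with the longest A run, -0.04 with the AT content and 0.07 with the length. These genes share libraries and transcription units, so the coefficients are a description only.

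Root libraries held 3206526 to 4133623 reads, shoot libraries 8610277 to 16816553 and seedling libraries 9878853 to 15401969. At least 1 read fell on 15 to 34 of the 133 members in a root library, 83 to 94 in a shoot library and 84 to 92 in a seedling library. Gene-level statements are kept to members with a TPM (a level per length, scaled to the same sum in each library) of 1 or more in 3 or more libraries of the tissue. That left 19 members in roots, 97 in shoots and 97 in seedlings, and 70, 32 and 35 members had no read in any library of these tissues. In roots 9 members stood just inside this limit, at a TPM of 1 or more in exactly 3 libraries, and 11 just outside it, in exactly 2. The mutated genes were read in the mutants too. TPST had a TPM of 7.20 to 12.1 in roots, which all carry tpst-1. PSYR1 had 0.559 to 1.64 TPM in receptor-mutant shoots, against 2.33 to 6.02 TPM in the other shoots. PSYR2 had 1.91 to 2.93 TPM in tpst/psyr1,2,3 roots, against 5.76 to 8.35 TPM in the other roots, and PSYR3 had 56.9 to 63.9 TPM, against 17.0 to 22.2 TPM. PSYR3 was thus read more, not less, in the mutant roots, and the labels do not give where its allele interrupts the gene. Nuclear photosynthesis genes, a list of 23, took 7.90% to 13.4% of shoot reads and 0.0184% to 0.0421% of root reads. The 7 root marker genes on a second list took 0.704% to 0.925% of root reads and 0.0165% to 0.0589% of shoot reads. All 7 were above 0 in every root library, and also in untreated tpst-1 shoot replicate 4.

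Untreated tpst-1 shoot replicate 1 stood apart from the other shoot libraries. It had the most reads (16816553), the largest chloroplast share (4.42% of reads) and a correlation down to 0.946 with its replicates. In it atpB was at 585 TPM, against 1880 to 2334 TPM in the other 3 tpst-1 shoot libraries, and rpl14 was at 682 TPM, against 3247 to 3634 TPM. The values of ndhC went the other way, 1352 TPM against 436 to 778 TPM. For the shoot comparisons that rest on untreated tpst-1, the counts of called members are therefore also given without this library. The changes and folds of single genes, the class medians and the nuclear gene lists include it.

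In shoots, chloroplast transcripts took more than 1% of all reads in every library, and in roots less than 0.01%. The share was 1.73%, 1.41%, 1.87% and 1.35% in tpst/psyr1,2,3 shoots and 1.55%, 1.67%, 1.58% and 1.38% in psyr1,2,3 shoots. PSY5-treated tpst-1 shoots had 2.33%, 3.66%, 3.20% and 3.01%, untreated tpst-1 shoots 4.42%, 2.43%, 2.93% and 2.30%, and wild-type shoots 2.42%, 2.53%, 2.07% and 2.66%. All 8 libraries of the 2 receptor-mutant groups were below all 12 other shoot libraries. This separation also held with mitochondrial reads and reads on identifiers that begin with ENSRNA left out of the total. The receptor mutants then had at most 1.87%, against at least 2.08%. It did not hold in 2 other measures. Without ribosomal and transfer RNA, tpst/psyr1,2,3 replicate 3 was above wild-type replicates 2 and 3. It was then also above tpst-1 replicate 2 and PSY5 replicates 1 and 4. In that measure tpst/psyr1,2,3 replicate 1 and psyr1,2,3 replicate 3 were above PSY5 replicate 1. As sums of TPM, tpst/psyr1,2,3 replicate 3 was again above the same libraries, and psyr1,2,3 replicate 3 above PSY5 replicate 1. In roots the share of all reads was 0.00339% to 0.00514% in tpst/psyr1,2,3, 0.00243% to 0.00320% with PSY5 and 0.00492% to 0.00815% in untreated tpst-1, which is 82 to 261 reads per library. Seedlings lay between 1.09% and 2.31%, and the ranges of all 5 times overlapped.

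**Figure D1:**
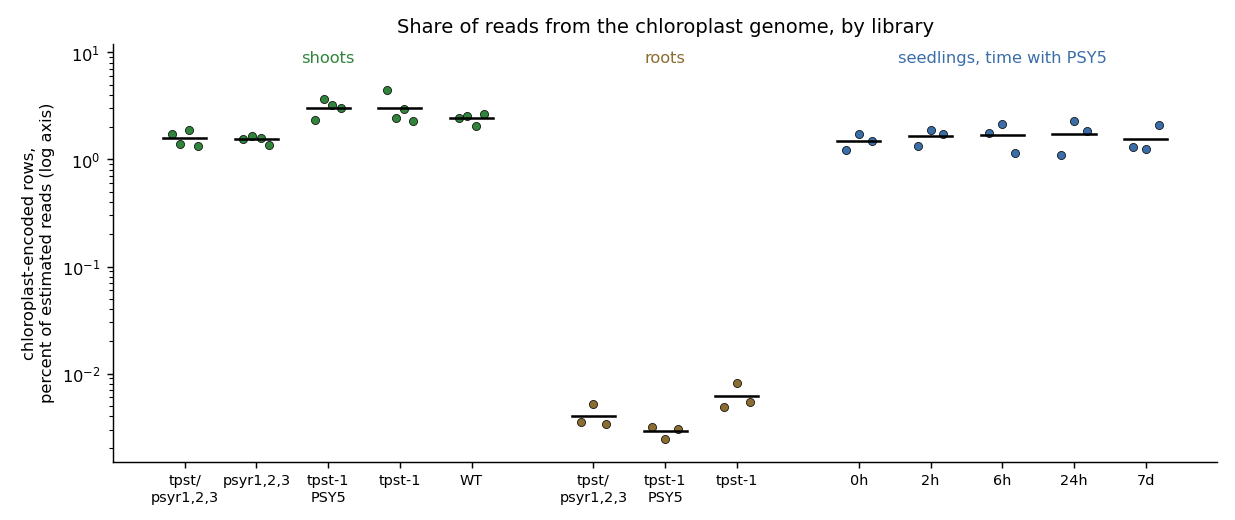
Share of all reads that fell on chloroplast-encoded transcripts, in percent, per library (points) with the group mean (bar), for shoots, roots and seedlings. The receptor-mutant shoots sit between 1.35% and 1.87%, below every other shoot library, and all root points lie below 0.01%.

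Other quantities moved with the shoot share. Reads on identifiers that begin with ENSRNA took 0.262% to 0.447% in tpst/psyr1,2,3 shoots, 0.280% to 0.396% in psyr1,2,3, 0.826% to 1.48% with PSY5, 0.736% to 1.64% in untreated tpst-1 and 0.510% to 1.02% in wild type. Over the 20 shoot libraries the chloroplast share had a Spearman rho of 0.97 with the ENSRNA share, 0.88 with the mitochondrial share, 0.69 with the total reads and 0.19 with the nuclear photosynthesis share. These are shares of the same libraries and of the same totals. Their part in the differences below was not tested.

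The comparison of untreated tpst-1 shoots with untreated tpst-1 roots describes which chloroplast transcripts the libraries of the 2 organs hold. The kit of each library is not given, and every root library held fewer reads than any shoot library. Organ and kit can therefore not be told apart here. The median difference of every class was positive. edgeR's quasi-likelihood test with Benjamini-Hochberg adjustment called 84 of the 97 members higher and 0 lower. Of all genes in that fit, 34.6% were called higher and 31.3% lower. Members entered this fit mostly through their shoot level (97 pass the TPM minimum in shoots and 19 in roots), so the count only describes them. Without tpst-1 shoot replicate 1 the count was 83 higher and 0 lower. No read in tpst-1 roots fell on 47 of the 97, so a fold against roots is then only a bound, set by 3 reads over the 3 root libraries. The median log2 difference was 8.95 as fitted and 6.35 with these genes at their bound.

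The ratios varied between genes. Among photosynthesis genes without a root read, ndhK (NDH complex) was at least 2400-fold higher in shoots relative to library size, psbM at least 409-fold, psbB (a chlorophyll-binding core protein of photosystem II) at least 287-fold and petB (cytochrome b6) at least 77.2-fold. The ATP synthase beta subunit gene atpB, with 8.03 root reads in all, was 3280-fold higher. psaA and psaB, the photosystem I core proteins, were 204-fold and 128-fold higher, with 5.02 and 9.03 root reads. The ribosomal protein gene rpl16, with 9.03 root reads, was 930-fold higher. The plastid-encoded polymerase genes had unlike ratios, and differences among them were not tested. rpoB was 15.8-fold higher with 23.1 root reads, rpoC1 11.5-fold with 11 and rpoC2 81.4-fold with 4.02. rpoA had 1 read in tpst-1 roots and 2248 to 5018 reads in each tpst-1 shoot library, too few root reads for a ratio. The acetyl-CoA carboxylase subunit gene accD was 19.0-fold higher, with 4.02 root reads. By class the median log2 ratio was 10.18 for ATP synthase, 9.93 for Rubisco, 8.70 for ribosomal proteins, 8.63 for NDH, 7.39 for ribosomal RNA, 7.00 for photosystem I, 5.17 for RNA polymerase, 3.97 for photosystem II and 2.64 for cytochrome b6f genes. Genes without root reads stand in these medians at their bound, among them 10 of 13 photosystem II genes and 3 of 4 cytochrome b6f genes. Other genes enter with ratios from 1 to 3 root reads, among them rbcL (2.01 reads), atpE (1 read) and rpoA. The classes therefore cannot be ranked by these medians.

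Composition was described as shares of chloroplast reads. Polymerase genes made up 13.7% ± 3.16 of chloroplast reads in tpst/psyr1,2,3 roots, 11.8% ± 0.715 in PSY5-treated tpst-1 roots and 6.50% ± 0.796 in untreated tpst-1 roots (SD, n = 3 each), against 0.833% to 2.19% in shoot libraries. Ribosomal RNA was the largest class in roots, with 62.2% ± 0.792 in tpst/psyr1,2,3, 72.1% ± 1.67 with PSY5 and 77.4% ± 7.01 in untreated tpst-1. In shoots it held 27.6% ± 4.99 in tpst/psyr1,2,3, 28.9% ± 4.97 in psyr1,2,3, 52.6% ± 1.72 with PSY5, 44.1% ± 19.2 in untreated tpst-1 and 37.4% ± 8.82 in wild type (SD, n = 4 each). The spread in untreated tpst-1 shoots ran from 18.8% to 65.3%. Shares of reads are not per length. Over the 20 shoot libraries the members with the most reads were rrn23S ATCG01180 (18.1% of chloroplast reads), atpB (11.6%), ycf1 ATCG01130 (11.1%, a large protein tied to import across the inner envelope), rrn23S ATCG00950 (8.03%) and atpE (6.96%, the ATP synthase epsilon subunit). In roots they were rrn23S ATCG00950 (29.9%), both copies of rrn16S (17.4% and 14.0%), rrn23S ATCG01180 (9.18%) and rpoB (5.66%).

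**Figure D2:**
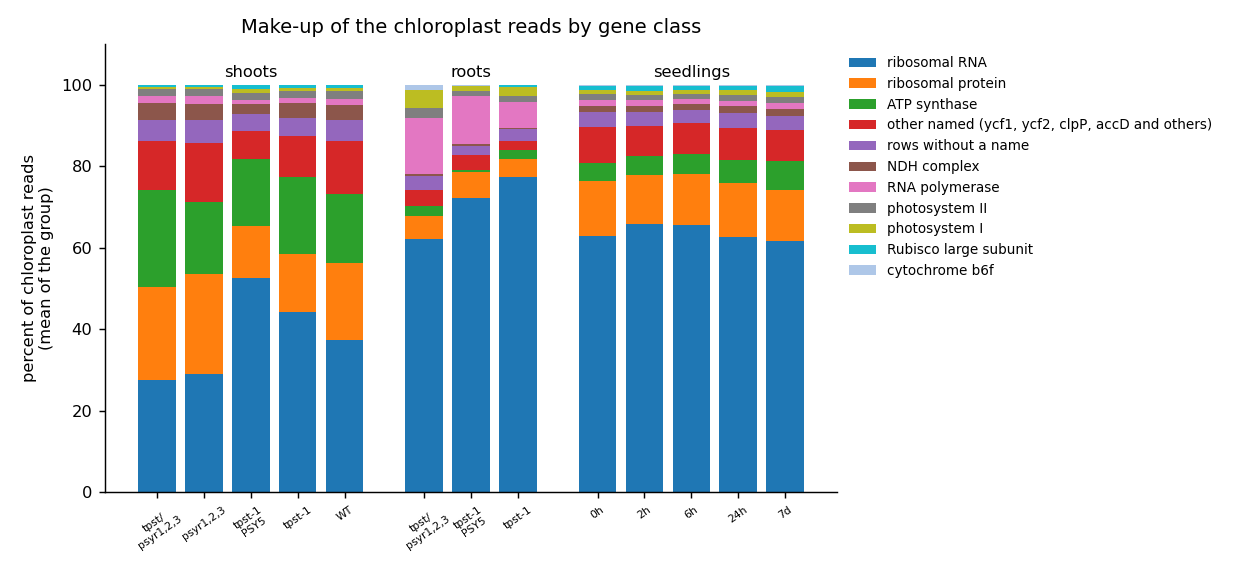
Mean share of chloroplast reads per gene class, in percent, stacked for each of the 13 groups. Ribosomal RNA is the largest class in every root group, and RNA polymerase genes average 6.50% to 13.7% in the root groups.

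Per length the order in shoots was another. Among the 57 named single-copy genes, the 5 highest mean TPM belonged to psbM, rpl32, atpE, rps19 and rpl16. The unnamed repeat pair ATCG00905 and ATCG01230 is outside that ranking. Summed, it averaged from 7961 TPM in tpst/psyr1,2,3 shoots to 9552 TPM in untreated tpst-1 shoots. TPM divides by an effective length that becomes very small for short transcripts. Thus psbM had 16637 to 21586 TPM in tpst/psyr1,2,3 shoots, against 22484 to 24182 TPM in untreated tpst-1 shoots, from 710 to 996 reads in tpst/psyr1,2,3. In 12 of the 20 shoot libraries petN was listed at 0, and its highest value was 86.3 TPM.

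Loss of the 3 receptor genes was first compared within the tpst-1 background. In tpst/psyr1,2,3 shoots 47 of 97 members fell and 0 rose against untreated tpst-1 shoots, where 9.58% of all genes fell and 5.04% rose. The median log2 change of the members was -0.95. Without tpst-1 replicate 1, 39 members fell, 0 rose and the median was -0.79. A fit of the compared groups alone called 27. The share of chloroplast reads was 0.525 times that of tpst-1 shoots, or 0.621 times without that library and 0.794 times as sums of TPM. The ENSRNA share given above was also lower in every tpst/psyr1,2,3 library than in every tpst-1 library, and its part in these calls was not tested.

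Among the light-reaction genes, all 3 named photosystem I genes fell. Class counts here and below cover only members with a symbol. psaA was at 15.1, 13.5, 9.92 and 9.38 TPM in tpst/psyr1,2,3 shoots, against 39.6, 42.6, 42.9 and 35.5 TPM in tpst-1 shoots. It fell by 2.17 ± 0.24 on the log2 scale (SE, adjusted p 2.34e-06, edgeR quasi-likelihood test). psaB was at 21.6, 20.5, 16.8 and 18.0 TPM, against 47.8, 54.7, 58.0 and 44.1 TPM, and fell by 1.83 ± 0.21 (adjusted p 3.01e-06). For both genes the groups are well apart, and tpst-1 replicate 1 lies among its own group. Of 13 named photosystem II genes 9 fell, with a class median of -1.26. The core antenna gene psbB was at 31.2, 28.6, 25.9 and 22.9 TPM in tpst/psyr1,2,3, against 60.7, 41.2, 48.0 and 36.1 TPM in tpst-1 (-1.26 ± 0.24). psbL, a small subunit, changed by -2.07 ± 0.50 (adjusted p 0.00692) and psbE, a cytochrome b559 subunit, by -1.59 ± 0.32. ATCG00020 (psbA or psbD by its length, reaction centre proteins in both cases) was at 41.2, 40.0, 39.4 and 26.7 TPM, against 171, 109, 123 and 90.7 TPM. It changed by -2.24 ± 0.29 (adjusted p 1.29e-05), and the groups do not overlap.

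Rubisco and the other thylakoid complexes moved the same way to unequal degrees. The Rubisco large subunit gene rbcL was at 40.8, 43.2, 36.0 and 35.3 TPM in tpst/psyr1,2,3 shoots, against 129, 117, 125 and 92.7 TPM in tpst-1 shoots, a change of -2.03 ± 0.25 (adjusted p 9.46e-06). All tpst/psyr1,2,3 libraries were below all tpst-1 libraries. Of 4 cytochrome b6f genes 2 fell, petB (-1.11 ± 0.24, adjusted p 0.0028) and petA (-0.56 ± 0.18). Of 4 ATP synthase genes 3 fell: atpA (-1.12 ± 0.20), atpI (-1.27) and atpE (-1.20 ± 0.26, adjusted p 0.00266). The fourth, atpB, was at 1506, 1511, 1828 and 1778 TPM, against 585, 2004, 1880 and 2334 TPM, and did not pass (-0.31 ± 0.18, adjusted p 0.268). Its tpst/psyr1,2,3 values all lie between tpst-1 replicate 1 and the other 3 tpst-1 libraries. Of 8 NDH genes 4 fell, among them ndhK (-1.35 ± 0.28) and ndhC (-1.54), whose highest tpst-1 value is replicate 1.

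The expression machinery followed in part. Of its members, 5 of 20 ribosomal protein genes fell (class median -0.45), among them rps14 (-1.69 ± 0.32), rps2 (-1.40), rpl20 (-0.86) and rpl32 (-0.73 ± 0.17, adjusted p 0.00514). rpl16 was at 4188, 3432, 4862 and 3433 TPM in tpst/psyr1,2,3 shoots, against 2152, 4017, 4444 and 5342 TPM in tpst-1 shoots, with overlapping groups and an adjusted p of 0.166 by edgeR. Of the polymerase genes rpoC2 fell (-1.18 ± 0.26, adjusted p 0.00361), while rpoB (-0.22 ± 0.14, adjusted p 0.299), rpoC1 (-0.37) and rpoA (-0.48) did not pass. The levels of rpoB were 15.0, 12.2, 16.7 and 12.8 TPM, against 7.42, 14.3, 14.6 and 15.9 TPM, and overlap. With both copies summed, rrn16S (small-subunit ribosomal RNA) changed by -2.06 ± 0.42 (adjusted p 0.0019) and rrn23S by -1.99 ± 0.40 (adjusted p 0.00154). The summed rrn16S level was 1218, 937, 994 and 578 TPM in tpst/psyr1,2,3, against 5155, 2215, 2782 and 921 TPM in tpst-1, so tpst-1 replicate 4 lies within the tpst/psyr1,2,3 range. Summed ycf2, a large protein gene essential for the plastid, changed by -1.62 ± 0.33 (adjusted p 0.00166), and summed rpl2 (-0.22) and rpl23 (0.07) did not pass. Of the remaining genes accD (-1.67), ccsA (cytochrome c biogenesis, -1.40), cemA (an envelope membrane protein, -0.80), clpP (a protease subunit, -0.79) and ycf1 ATCG01130 (-0.79 ± 0.20, adjusted p 0.00944) fell. Whether the classes differ from one another was not tested.

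**Figure D3:**
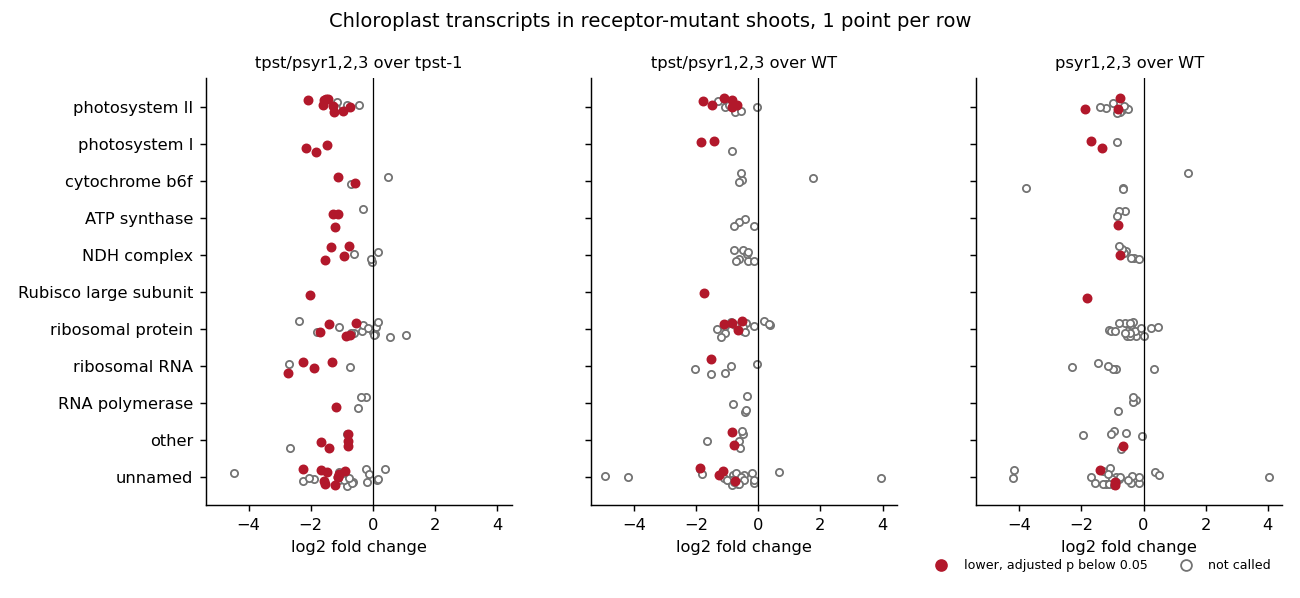
Log2 fold change of each tested chloroplast member by gene class in 3 shoot comparisons: tpst/psyr1,2,3 over tpst-1, tpst/psyr1,2,3 over wild type and psyr1,2,3 over wild type. Filled red points fell (47, 20 and 12 of 97 members), open points did not pass, and rbcL and the photosystem I genes psaA and psaB passed in all 3.

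The TPM scale gave smaller changes in these comparisons. On log2(TPM + 1) the median of all genes moved by 0.32 in tpst/psyr1,2,3 shoots over tpst-1 shoots, by 0.20 over wild-type shoots and by 0.15 in psyr1,2,3 over wild type. The chloroplast medians on that scale were -0.66, -0.49 and -0.54. Relative to the median of all genes these are -0.98, -0.69 and -0.69. The same scale moved all genes by -0.13 in tpst-1 over wild-type shoots (members 0.08) and by -0.70 in tpst-1 shoots over roots (members 6.38). In the edgeR fit the median of all genes stayed within 0.07 of 0 in every comparison.

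Against wild-type shoots, all calls in the receptor mutants were downward. In psyr1,2,3 shoots, which keep TPST, 12 of 97 members fell and 0 rose, where 0.91% of all genes fell and 0.882% rose. The median change of the members was -0.77. In tpst/psyr1,2,3 shoots 20 fell and 0 rose, where 3.36% of all genes fell and 3.53% rose, and the median was -0.72. Both comparisons use the same 4 wild-type libraries, so they are not independent of each other. Fits of the compared groups alone called 38 in psyr1,2,3 and 41 in tpst/psyr1,2,3, and DESeq2 called 20 in psyr1,2,3. Limma called 7 there with either pseudocount. Without wild-type replicate 1 the counts were 7 in psyr1,2,3 and 8 in tpst/psyr1,2,3. Leaving out psyr1,2,3 replicate 3 or 4 also gave 7, and leaving out wild-type replicate 4 gave 13 in tpst/psyr1,2,3. Without tpst/psyr1,2,3 replicate 2 or 4 its count was 10 or 8. The 8 receptor-mutant libraries of both groups had less ENSRNA than the 4 wild-type libraries, and its part was not tested.

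Photosynthesis genes were among those that fell furthest. psaA was at 15.1, 13.5, 9.92 and 9.38 TPM in tpst/psyr1,2,3 and 14.5, 17.4, 11.2 and 8.03 TPM in psyr1,2,3, against 39.5, 46.7, 26.5 and 32.7 TPM in wild type. Its change was -1.83 ± 0.24 in tpst/psyr1,2,3 (adjusted p 7.8e-05) and -1.69 ± 0.24 in psyr1,2,3 (adjusted p 0.000521). rbcL was at 41.9, 45.5, 28.6 and 25.2 TPM in psyr1,2,3, against 105, 150, 86.3 and 103 TPM in wild type, with changes of -1.75 ± 0.25 in tpst/psyr1,2,3 and -1.83 ± 0.25 in psyr1,2,3. ATCG00020 was at 45.9, 65.3, 38.0 and 46.3 TPM in psyr1,2,3, against 126, 131, 87.1 and 116 TPM in wild type, with changes of -1.86 ± 0.28 and -1.41 ± 0.28 in the same order of mutants. For psaA, rbcL and ATCG00020 no receptor-mutant value reached the lowest of the 12 other shoot libraries. The calls of these 3 also held under each omission of 1 library in both comparisons. psaB changed by -1.43 in tpst/psyr1,2,3 and by -1.32 ± 0.21 in psyr1,2,3, where its call held under each omission too.

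By class, psyr1,2,3 had 3 of 13 photosystem II genes lower (psbE -1.87 ± 0.34, psbC -0.74, psbM -0.81), 2 of 3 photosystem I genes, atpA (-0.83), ndhF (-0.77), rbcL and clpP (-0.68). None of the 20 ribosomal protein genes, the 4 polymerase genes or the 6 ribosomal RNA identifiers passed there. In tpst/psyr1,2,3, 6 of 13 photosystem II genes were lower than in wild type, 2 of 3 photosystem I genes, rbcL and 4 of 20 ribosomal protein genes, among them rps3 (-0.64) and rpl16 (-0.51, adjusted p 0.0426). The call of psbL (-1.79 ± 0.51, adjusted p 0.0356) was lost in 6 of 8 omissions of 1 library, namely wild-type replicates 1, 3 and 4 and tpst/psyr1,2,3 replicates 1, 3 and 4. rrn23S ATCG00950 passed on its own (-1.52), but with both copies summed rrn23S (-1.19, adjusted p 0.0675) and rrn16S (-1.17, adjusted p 0.0903) did not pass. atpB did not pass in either comparison (-0.13, adjusted p 0.773, and -0.60, adjusted p 0.107).

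The 2 receptor-mutant groups were also set against each other, which asks what tpst-1 changes when the receptors are missing. No member passed by edgeR in tpst/psyr1,2,3 over psyr1,2,3 shoots (0 of 97, median -0.01, with 3 at an unadjusted p under 0.05), where 0.18% of all genes rose and 0.284% fell. DESeq2 and both limma fits also called 0. The share ratio was 1.03.

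**Figure D4:**
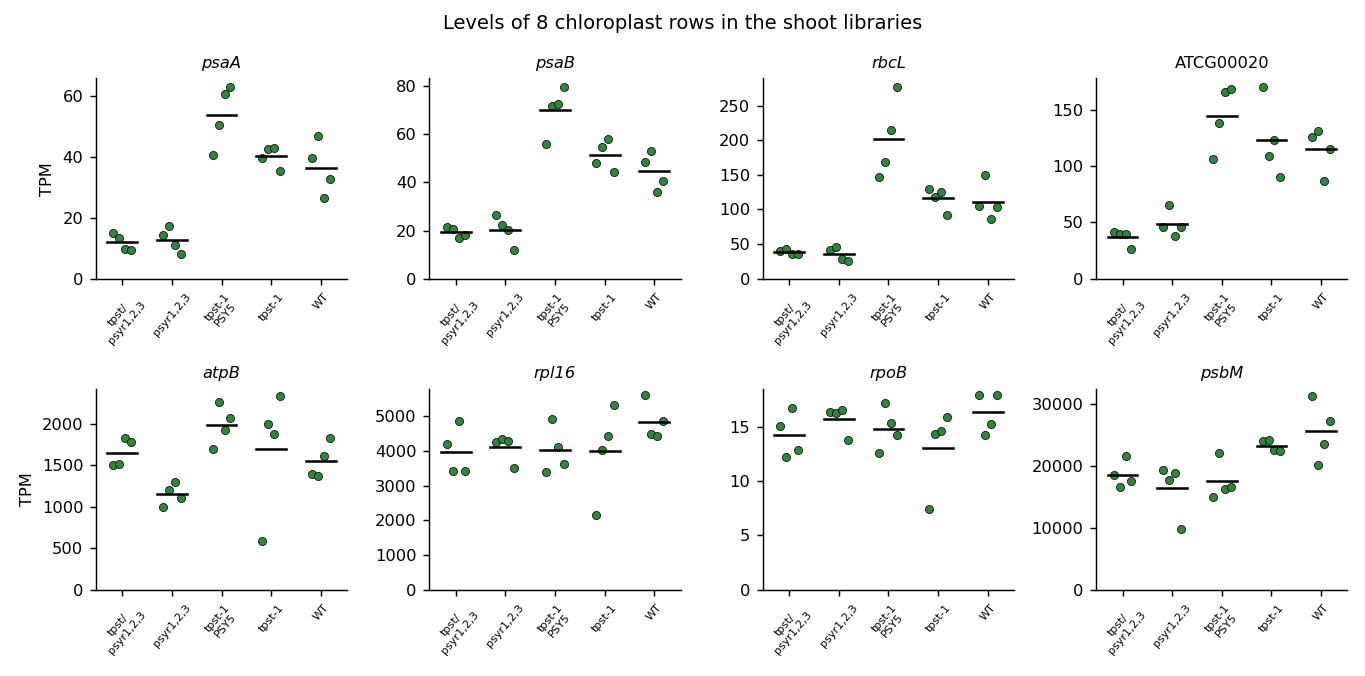
TPM of 8 chloroplast genes in each of the 20 shoot libraries (points) with group means (bars), groups from tpst/psyr1,2,3 at the left to wild type at the right. The psaA, psaB, rbcL and ATCG00020 points of both receptor mutants lie below all others, and rpoB points overlap between all groups.

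In the comparison of tpst-1 alone no member passed. In tpst-1 shoots over wild type 0 of 97 members passed by edgeR, where 6.98% of all genes rose and 2.1% fell. The median change was 0.28 and 15 members had an unadjusted p under 0.05. DESeq2 called 2 and limma 1. Without tpst-1 replicate 1 the median was 0.04, again with no call. Leaving out tpst-1 replicate 2, 3 or 4 gave 3, 2 and 2 calls. The share of chloroplast reads was 1.25 times that of wild type, and 1.06 times without replicate 1. The test of whether receptor loss acts differently with and without tpst-1 (the interaction in shoots) gave 0 calls of 97 by edgeR, a median of -0.29 and 4 members at an unadjusted p under 0.05. DESeq2 and limma gave 0 too, and 0.341% of all genes were called higher and 2.37% lower. Without tpst-1 replicate 1 the interaction median was -0.04, again with 0 calls of 97.

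PSY5 treatment of tpst-1 shoots changed few chloroplast transcripts. The share of reads was 1.01 times that of untreated tpst-1 shoots, with overlapping ranges. Of 97 members 0 rose and 1 fell, where 1.24% of all genes rose and 3.67% fell, and the median was -0.12. The 1 call was ndhK (-1.01 ± 0.27, adjusted p 0.0336), at 639, 1058, 875 and 723 TPM with PSY5, against 1675, 862, 1163 and 1568 TPM without it. DESeq2 called 5 members and a fit of the compared groups alone 0. The groups overlap for ndhK, and its call was lost without tpst-1 replicate 1 and without PSY5 replicate 1, 3 or 4. Without tpst-1 replicate 1 a different result was left, with 1 member higher, 0 lower and a median of -0.03. Leaving out tpst-1 replicate 2, 3 or 4 gave 6, 4 and 3 calls, leaving out PSY5 replicate 2 gave 2, and leaving out PSY5 replicate 3 or 4 gave 0. On log2(TPM + 1) the member median was 0.12, of the opposite sign, beside a median of 0.21 for all genes. 2 photosynthesis genes show values that did not pass. rbcL was at 146, 169, 215 and 277 TPM with PSY5, against 129, 117, 125 and 92.7 TPM without (0.50, adjusted p 0.232), and psbC changed by 0.40 (adjusted p 0.0700).

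Against wild-type shoots, PSY5-treated tpst-1 shoots had 1 member higher and 1 lower of 97, where 3.51% of all genes were higher and 1.52% lower. The photosystem II antenna gene psbC was at 186, 218, 236 and 213 TPM with PSY5, against 140, 156, 133 and 142 TPM in wild type (0.50 ± 0.13, adjusted p 0.0216, no overlap). The ribosomal protein gene rps3 was at 2213 ± 327 TPM, against 3077 ± 575 TPM (SD, n = 4 each), a change of -0.56 ± 0.16 (adjusted p 0.041 by edgeR). A fit of the compared groups alone called 11 members, 6 higher and 5 lower, and DESeq2 called 6. Neither edgeR call held under every omission. psbC was lost without wild-type replicate 1, 3 or 4 or PSY5 replicate 2 or 3, and rps3 without wild-type replicate 1, 2 or 4 or PSY5 replicate 1, 3 or 4.

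In roots, chloroplast transcripts were near the detection limit, and no single member passed. PSY5 treatment gave 0 of 19 calls by edgeR (median -0.23, 1 at an unadjusted p under 0.05), where 7.52% of all genes rose and 7.69% fell. Receptor loss in tpst-1 roots gave 0 of 19 (median -0.04, 1 at an unadjusted p under 0.05), where 7.9% rose and 7.5% fell. tpst/psyr1,2,3 over PSY5-treated roots gave 0 of 19 (median 0.10, 0 at an unadjusted p under 0.05), where 0.316% rose and 0.22% fell. DESeq2 and both limma fits gave 0 in all 3 comparisons. The best-covered messenger, rpoB, was at 0.802, 1.22 and 0.944 TPM in tpst/psyr1,2,3, 1.32, 0.894 and 0.644 TPM with PSY5, and 0.763, 1.38 and 0.944 TPM in untreated tpst-1. These values overlap and rest on 6.02 to 10.04 reads each. The photosynthesis messengers psaA and atpB had 0 to 4.02 reads in any root library.

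Ribosomal RNA was the exception once the 2 repeat copies were summed, a step chosen after the data were seen. Summed rrn16S was at 5.07, 6.47 and 6.97 TPM with PSY5 and 8.62, 12.6 and 5.89 TPM in tpst/psyr1,2,3, against 20.1, 22.3 and 16.1 TPM in untreated tpst-1 roots. All 6 treated or receptor-mutant values are below all 3 untreated tpst-1 values. The change was -1.59 ± 0.22 with PSY5 (adjusted p 9.6e-06) and -1.16 ± 0.21 with receptor loss (adjusted p 0.000303, edgeR). Summed rrn23S was at 6.45, 3.38 and 4.98 TPM with PSY5 and 4.67, 6.57 and 5.58 TPM in tpst/psyr1,2,3, against 6.74, 11.6 and 7.62 TPM. It changed by -0.77 ± 0.21 (adjusted p 0.0131) and -0.68 ± 0.21 (adjusted p 0.0319). Both comparisons share the untreated tpst-1 libraries. tpst/psyr1,2,3 over PSY5-treated roots changed by 0.44 for rrn16S (adjusted p 0.61) and 0.10 for rrn23S (adjusted p 0.94). The ENSRNA share was 0.0954% to 0.112% with PSY5 and 0.0883% to 0.0983% in tpst/psyr1,2,3, against 0.125% to 0.259% in untreated tpst-1 roots, also without overlap, and its part was not tested. The total chloroplast share was 0.470 times that of untreated tpst-1 roots with PSY5, without overlap, and 0.650 times in tpst/psyr1,2,3, with overlap. Without ribosomal and transfer RNA the ratio of tpst/psyr1,2,3 was 1.05, so its direction turned, and as sums of TPM the ratio with PSY5 was 0.242.

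Differences between organs were tested in 1 joint fit of roots and shoots. For the PSY5 effect in shoots minus that in roots, 0 of 97 members passed by edgeR (median 0.08, 3 at an unadjusted p under 0.05), where 1.21% of all genes were higher and 2.1% lower. DESeq2 called 2, limma 1 with a pseudocount of 1 and 2 with 0.1. For the receptor-loss effect 0 of 97 passed (median -0.77, 8 at an unadjusted p under 0.05), where 1.65% were higher and 3.51% lower. DESeq2 called 6 and the limma fits 13 and 6. Summed rrn16S differed by 1.46 for PSY5 (adjusted p 0.318) and by -0.91 for receptor loss (adjusted p 0.561). Without tpst-1 shoot replicate 1 the member medians were 0.22 for PSY5 and -0.68 for receptor loss, with 0 calls in either. The root values in these differences rest on the few reads given above.

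In seedlings of tpst-1 given PSY5, few chloroplast transcripts passed in the first day. At 2h 0 of 97 members rose and 1 fell (4.53% of all genes rose and 8.01% fell). At 6h 0 passed by edgeR, with 2 at an unadjusted p under 0.05 and 1 call by DESeq2 (5.89% rose, 8.56% fell). At 24h 0 rose and 1 fell (5.43% rose, 8.63% fell). The 2 falls were repeat copies, ycf2 ATCG00860 at 2h and rpl23 ATCG01300 at 24h. With both copies summed they changed by 0.10 (adjusted p 0.905) and -0.14 (adjusted p 0.764), so neither passed. The member medians were 0.06, 0.00 and 0.25 at 2h, 6h and 24h.

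At 7d 2 members rose and 0 fell, where 8.53% of all genes rose and 10.8% fell, and the median was 0.23. With repeat copies summed 1 more member passed, downward, the unnamed pair ATCG00905 and ATCG01230 (-0.45, adjusted p 0.0497 by edgeR). Both genes that rose encode subunits of the ATP synthase catalytic part. atpB was at 212, 290 and 259 TPM at 0h, 273, 314 and 332 at 2h, 353, 361 and 283 at 6h, 276, 413 and 400 at 24h, and 374, 384 and 510 at 7d. Its change over 0h was 0.22, 0.35, 0.49 (adjusted p 0.0602) and 0.72 ± 0.17 (adjusted p 0.00385) at the 4 later times, and every 7d value is above every 0h value. atpE was at 941, 1171 and 1453 TPM at 0h and 2018, 1821 and 2298 TPM at 7d, with no overlap (0.77 ± 0.20, adjusted p 0.00832). The atpE call was lost without 0h replicate 1 (adjusted p 0.0668). Without 7d replicate 3 the count of calls was 8, and without 7d replicate 1 it was 4. The ATP synthase class held 4.5% of chloroplast reads at 0h, 4.68% at 2h, 4.96% at 6h, 5.57% at 24h and 7.11% at 7d.

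No other member passed at 7d in the fit of single copies. Changes that did not pass there reached 0.79 for photosystem II, -0.98 to 1.01 for ribosomal protein and -1.18 to 9.45 for ribosomal RNA identifiers. With both repeat copies summed, rrn16S changed by 0.05, rrn23S by 0.02 and rrn4.5S by 0.10. rbcL averaged 114, 135, 126, 139 and 160 TPM from 0h to 7d (7d change 0.48, adjusted p 0.290), psaA 31.3, 35.7, 31.4, 42.9 and 41.4 TPM, rpl16 2277, 2275, 2388, 2526 and 2044 TPM, and ycf1 ATCG01130 802, 769, 799, 809 and 741 TPM. The class medians at 7d were 0.55 for ATP synthase, 0.43 for NDH, 0.42 for cytochrome b6f, 0.41 for photosystem I, 0.38 for photosystem II, 0.10 for ribosomal proteins and -0.02 for ribosomal RNA. The ENSRNA share ran from 0.486% to 1.48% over the 15 seedling libraries and had a Spearman rho of 0.91 with the chloroplast share. Its part was not tested.

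**Figure D5:**
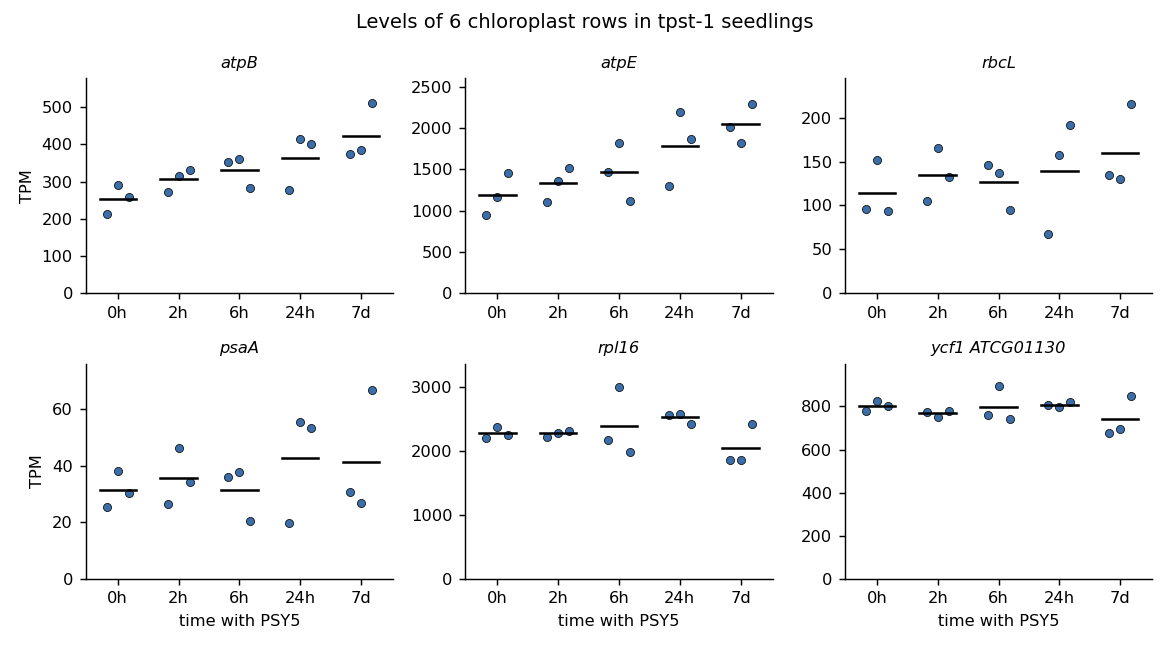
TPM of atpB, atpE, rbcL, psaA, rpl16 and ycf1 ATCG01130 in each seedling library (points) with the mean at each time (bars), from 0h to 7d of PSY5. The 7d points of atpB (374 to 510 TPM) and atpE (1821 to 2298 TPM) lie above all 0h points.

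Nuclear genes that act on the plastid genome were read in the same fits. Of 20 genes of the plastid transcription machinery (sigma factors, phage-type polymerases and polymerase-associated proteins), 5 rose in tpst/psyr1,2,3 over tpst-1 shoots (PAP1 0.65, PAP2 0.67, PAP3 0.36, PAP11 0.55 and the polymerase RPOTmp 0.77) and 1 fell, the stress- and light-responsive sigma factor SIG5 (-0.78 ± 0.21, adjusted p 0.0125). In that comparison 5.04% of all genes rose and 9.58% fell. SIG5 was also lower in tpst/psyr1,2,3 over psyr1,2,3 shoots (-0.95) and in the interaction (-1.19). SIG1 was lower in tpst/psyr1,2,3 over wild type (-0.39). The polymerase-associated PAP9 was lower in tpst-1 over wild type. No gene of this list passed in psyr1,2,3 over wild type or with PSY5 in shoots by edgeR. In roots SIG3 (0.70) and SIG5 (0.93) rose with PSY5, where 7.52% of all genes rose. Receptor loss raised SIG5 (0.84) and lowered RPOTp (-0.42) and PAP6 (-0.73), where 7.9% of all genes rose and 7.5% fell. In seedlings 1, 2 and 3 genes rose at 2h, 6h and 24h, where 4.53%, 5.89% and 5.43% of all genes rose. At 7d 6 rose (SIG1, SIG5, PAP2, PAP4, PAP5 and PAP12) and RPOTmp fell, where 8.53% of all genes rose and 10.8% fell. Of 5 plastid RNA turnover genes, RNJ (0.50) and PNP (0.45) rose and CSP41B (-0.56) fell in tpst/psyr1,2,3 over tpst-1 shoots. CSP41A (0.48) and CSP41B (0.47) rose in seedlings at 7d, and 1 gene rose at 6h and at 24h. Of the other comparisons within a tissue none called a turnover gene by edgeR. In tpst-1 shoots over roots 19 of 20 transcription genes were higher and 1 lower, and 5 of 5 turnover genes were higher. Of all genes in that fit 34.6% were higher and 31.3% lower.

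Nuclear photosynthesis genes, whose products work with the chloroplast-encoded subunits, were counted beside them. In tpst/psyr1,2,3 over tpst-1 shoots 13 of 23 fell (median -0.51), where the chloroplast-encoded median was -0.95 and 9.58% of all genes fell. Over wild type 8 fell in tpst/psyr1,2,3 (median -0.42) and 0 in psyr1,2,3 (median -0.25), where 3.36% and 0.91% of all genes fell. PSY5 lowered 7 in tpst-1 shoots (median -0.42), where 1 chloroplast member and 3.67% of all genes fell. With PSY5 5 were lower than in wild type, where 1.52% of all genes were lower. None passed by edgeR in tpst-1 over wild type. In seedlings 0, 6 and 6 rose at 2h, 6h and 24h, and at 7d 22 rose (median 0.44), beside 2 chloroplast members. At these times 4.53%, 5.89%, 5.43% and 8.53% of all genes rose. In roots receptor loss raised 9 of 21 (median 0.70), beside no chloroplast member and 7.9% of all genes. PSY5 raised 2 and lowered 2 there, where 7.52% of all genes rose and 7.69% fell. All 23 were higher in tpst-1 shoots than in tpst-1 roots, and all 7 genes of the root list were lower. In that fit 34.6% of all genes were higher and 31.3% lower. Differences between the nuclear and the chloroplast-encoded sets were not tested.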

How the data were processed

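Each file holds, per the file headers, a length, an effective length, a TPM value and a number of reads for 34262 gene models. The read numbers are expected counts, deposited by the authors with fractions, and the TPM values were likewise computed and deposited by the authors. The submitters' processing notes name build TAIR10, and for the program that quantified the reads the sources used here give no name. Library kits are named in the labels' protocols, which do not say how messenger RNA was selected or which replicates came from separate plants. The p-values therefore measure spread between libraries, which may be technical.

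Members are all ATCG identifiers. The members and the gene lists were chosen with earlier results of these data known. Symbols were given where a length equalled that of 1 RefSeq chloroplast gene length (TAIR10.1). Expected counts were rounded and tested with edgeR 4.0.16 (TMM, quasi-likelihood) in R 4.3.3, with all groups of a tissue in 1 fit over every gene at a TPM of 1 or more in 3 or more libraries. P-values were adjusted by Benjamini and Hochberg over all genes tested, and a gene passed at an adjusted p below 0.05. Fold changes are log2 values ± SE. The fit was tested on simulated data. Library totals ran from 3206526 to 16816553 reads. Shares of reads are described without a test. A gene with no root reads got a bound from 3 reads, which covers counting error only.

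Genes were named by this rule: psbA, psbD, rbcL, psaA, psaB, petB, atpB, ndhB, rps12, rpl2, rpoB, rpoC1, clpP, accD, ycf1, ycf2 and matK where they passed the TPM minimum and had a symbol; up to 5 called members with the largest rise or fall in a comparison; the 5 members highest by mean TPM and by share of reads in a tissue; members that do not overlap between roots and shoots; and the 4 mutated genes. Other genes named as examples of a class were chosen after their values were seen. The 4 nuclear lists were photosynthesis (23 genes), root markers (7), plastid transcription machinery (20) and plastid RNA turnover (5).

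Alternatives were scaling without organelle and ENSRNA genes, no filter, a TPM of at least 5, a replicate block and the omission of each library. Others were limma 3.58.1 on log2(TPM + 1) and log2(TPM + 0.1), DESeq2 1.42.0 and fits of the compared groups only. Fits with the copies of the inverted repeat summed were added after the data were seen. Tables and figures used Python 3.11.15, pandas 2.3.3, scipy 1.17.1 and matplotlib 3.10.9.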

Additional observations from a re-analysis of the deposited data

Results flagged for a closer look

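Of 65 tests for 1 library far from the rest of its group, 2 found such a library, and chance alone gives about 1 in 20. In psyr1,2,3 shoots, replicate 4 had rpoB at 13.8 TPM, against 16.2 to 16.6 TPM in the other 3 libraries of that group. The gap to its nearest neighbour was 0.884 of the whole range. In tpst/psyr1,2,3 shoots, replicate 4 had ATCG00020 at 26.7 TPM, against 39.4 to 41.2 TPM in the other 3 libraries. That gap was 0.871 of the range.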

How the results depend on the processing

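The counts of members called moved by over 1.5 times as follows, with edgeR unless named. Without a filter PSY5 in roots gave 1, receptor loss in roots 2, tpst/psyr1,2,3 over PSY5 in roots 1, 2h 3 and 24h 5, and with a TPM of at least 5 24h gave 0. With repeat copies summed (added after the data were seen) PSY5 and receptor loss in roots gave 2 each, and 2h and 24h gave 0 each; ycf2 ATCG00860 at 2h then turned to 0.10. Limma with a pseudocount of 1 gave 1 for tpst-1 over wild type, 7 for psyr1,2,3 over wild type, 0 for PSY5 in shoots, 4 for PSY5 over wild type, 0 at 2h and 24h, and 1 and 13 for the shoot minus root differences of PSY5 and receptor loss. With 0.1 these were 1, 7, 0, 4, 0, 0, 2 and 6. In the same order DESeq2 gave 2, 20, 5, 6, 3, 2, 2 and 6, and 1 at 6h. Fits of the compared groups alone gave 38 for psyr1,2,3 and 41 for tpst/psyr1,2,3 over wild type, 0 for PSY5 in shoots, 11 for PSY5 over wild type, 27 for receptor loss in shoots, 1 for tpst/psyr1,2,3 over psyr1,2,3, 0 at 2h and 3 at 24h. The causes were not tested. As sums of TPM the share ratio was 0.242 for PSY5 in roots, 1.88 for tpst/psyr1,2,3 over PSY5 in roots, 0.758 and 0.798 for psyr1,2,3 and tpst/psyr1,2,3 over wild type, 0.967 for PSY5 over wild type and 0.794 for receptor loss in shoots. Without ribosomal and transfer RNA it was 1.05 for receptor loss in roots, 1.88 for tpst/psyr1,2,3 over PSY5 in roots, 0.728 for psyr1,2,3 and 0.957 for PSY5 over wild type and 0.731 for receptor loss in shoots.

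Same-numbered libraries did not deviate together (r -0.0444 to 0.0795 over 9 root pairs, -0.161 to 0.0966 over 40 shoot pairs and -0.114 to 0.0568 over 30 seedling pairs). No pairing by number was thus detected, which does not show how the libraries were grown or prepared. With the replicate block PSY5 and receptor loss in roots gave 1 each, PSY5 in shoots 0, PSY5 over wild type 1, 24h 3, psyr1,2,3 over wild type 9, tpst/psyr1,2,3 over wild type 16 and receptor loss in shoots 47.

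Leaving out each library gave 0 to 1 calls for PSY5 in roots, 0 to 2 for receptor loss in roots, 0 to 0 between these, 0 to 3 for tpst-1, 7 to 10 for psyr1,2,3, 8 to 21 for tpst/psyr1,2,3 and 0 to 3 for PSY5 over wild type, 0 to 6 for PSY5 in shoots, 39 to 49 for receptor loss in shoots, 0 to 0 for tpst/psyr1,2,3 over psyr1,2,3, 0 to 1 for the interaction, 1 to 3, 0 to 1, 0 to 3 and 2 to 8 at 2h, 6h, 24h and 7d, 0 to 0 and 0 to 1 for the differences between organs, and 79 to 85 for shoots over roots. Share ratios ran from 0.426 to 0.56, 0.559 to 0.774 and 1.19 to 1.49 in the 3 root comparisons, 1.06 to 1.35 (tpst-1), 0.61 to 0.663 (psyr1,2,3), 0.618 to 0.689 (tpst/psyr1,2,3) and 1.18 to 1.36 (PSY5) over wild type, 0.935 to 1.19 for PSY5 and 0.487 to 0.621 for receptor loss in tpst-1 shoots, 0.967 to 1.08 between receptor mutants, and 1.02 to 1.21, 0.983 to 1.32, 0.986 to 1.39 and 0.857 to 1.14 in seedlings. Apart from the omissions, 59 of the call counts and share ratios under the alternatives moved and 145 did not. Of the values of single genes 260 kept direction and call, 31 lost the call and 1 reversed. Depth limits the root results, which rest on 82 to 261 reads per library.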
